A study of Rattus norvegicus with 23 samples.

Results

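Voltage-gated sodium channel subunits of the brain were followed across aging and FKBP1b gene transfer in the dorsal hippocampus of rats. They comprised 4 pore-forming alpha subunits, Scn1a, Scn2a, Scn3a and Scn8a, and 3 auxiliary beta subunits, Scn2b, Scn3b and Scn4b. Members were the probe sets whose single gene symbol in the array annotation was one of these names. This gave 8 probe sets for 7 of the 14503 genes carried with a single symbol, since Scn3a had 2 probe sets, 10845798 and 10845809. All 8 passed the minimum signal (at least 40 on at least 4 arrays) and stood among the 13339 probe sets tested, which covered 12604 genes. A further probe set that carries the symbols of Scn3a and Scn9a together was outside the rule and was not tested.

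Alpha subunits form the pore through which sodium enters the neuron to drive the rising phase of the action potential, and beta subunits adjust the gating, surface delivery and adhesion of the complex. In forebrain Scn1a is known for its prominence in fast-spiking inhibitory neurons, Scn2a and Scn8a for the axons of excitatory neurons, with Scn8a at the distal initial segment and nodes of Ranvier, and Scn3a for its high level before birth. Scn2b and Scn4b are linked to the alpha subunit by a disulfide bond, Scn3b is associated without one, and Scn4b supplies a peptide implicated in resurgent sodium current.

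The 23 arrays each held the dorsal hippocampus, from a single hemisphere, of 1 male F344 rat. Young controls (YC, n = 6) were 5 to 6 months old, are labelled as sham, and received no injection according to the methods. Aged controls (AC, n = 5), short-term treated (ST, n = 6) and long-term treated rats (LT, n = 6) were all 21 months old and had all received a virus in CA1 of both sides, 2 µl per side, with a CaMKII promoter that directs expression to excitatory neurons. AC rats carried AAV-eGFP at 1.86e13 GC/ml, while ST and LT rats carried AAV-FKBP1b at 1.99e12 GC/ml. The labels place injection at 18 months in AC and ST (3 months of exposure) and at 12 months in LT (9 months of exposure), whereas the design text gives 13 months for AC, 19 for ST and 13 for LT. ST and LT rats were chosen by the study for FKBP1b expression above their group medians. Aging therefore comes with surgery, vector and eGFP in AC against YC, and these cannot be told apart. In ST and LT against AC the transgene comes with a lower titer, no eGFP and the selection of rats by FKBP1b expression. Injection age and exposure length also differ from AC, in ST by the design text and in LT by the labels. These cannot be told apart from the transgene either. FKBP1b stabilizes ryanodine receptors and restrains calcium release from intracellular stores, and the study asked whether raising it counters expression changes of aging.

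Array medians lay between 134 and 141 and RNA integrity numbers between 8.9 and 9.8. Each of the 15 neuron markers listed had a signal of at least 523 on every array. The list had a score of -0.084 to 0.11, where a score is the mean over a list's genes of log2 signal minus the gene's mean over all arrays. Choroid plexus transcripts stood above a score of 0.5 on 5 arrays, namely AC replicates 3 and 4 (2.86 and 3.37) and LT replicates 1, 2 and 5 (0.69, 2.80 and 2.96), against -1.17 to 0.057 on the other arrays. AC replicate 5 had the highest microglia score (0.91, against -0.36 to 0.39 elsewhere) and the lowest hippocampal neuron (-0.59) and oligodendrocyte (-0.48) scores.

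The sodium channel genes lie in clusters. In the RefSeq order of coding genes on assembly GRCr8, Scn3a and Scn2a are neighbours on chromosome 3, where Scn1a lies beside Scn9a, and Scn2b and Scn4b are neighbours on chromosome 8, which also carries Scn3b, with Scn8a on chromosome 7. RefSeq promoter sequences were matched for 5 of the 7 genes (Scn2a, Scn3a, Scn8a, Scn2b and Scn4b). The 250 bases before the start sites of the adjacent pair Scn2b and Scn4b are shown because these neighbours differ in base composition and Scn2b is a member called between AC and YC. Scn2b lies downstream of chr8:54322133-54322382 and Scn4b downstream of chr8:54343623-54343872 (GRCr8, plus strand). They are written 5′ to 3′ with each CpG dinucleotide in capitals.
Scn2b: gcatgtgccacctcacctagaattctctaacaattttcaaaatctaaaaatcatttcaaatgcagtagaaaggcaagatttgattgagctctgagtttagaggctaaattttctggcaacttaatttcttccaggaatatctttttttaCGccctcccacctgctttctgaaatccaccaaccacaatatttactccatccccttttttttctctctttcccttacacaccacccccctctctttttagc
Scn4b: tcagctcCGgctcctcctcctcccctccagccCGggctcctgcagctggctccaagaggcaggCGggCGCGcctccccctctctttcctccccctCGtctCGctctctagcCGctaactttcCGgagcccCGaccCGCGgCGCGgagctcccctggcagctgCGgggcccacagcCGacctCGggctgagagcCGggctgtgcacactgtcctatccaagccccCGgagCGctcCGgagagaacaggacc
The Scn2b sequence held 1 CpG and was 38.8% G and C, whereas the Scn4b sequence held 21 CpG and was 71.6% G and C. Across 33469 rat promoters of the same length the medians were 5 CpG and 51.2%.

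Scn8a had the most extreme composition of the 5 promoters, with 53 CpG and 86.0% G and C, above the G and C content of 99.9% of promoters. Scn2a (39.6%) and Scn3a (41.6%) each held 4 CpG. Of 6 motifs searched on both strands, the GC box GGGCGG occurred 6 times before Scn8a and is present in 30.5% of all promoters of this length. The motif GGACAG, the right part of the RE1 element bound by the repressor REST, occurred once, as 1 match on the minus strand 44 bases before the Scn4b start, and is present in 18.2% of promoters. The left part of RE1, TTCAGCACC (0.305% of promoters), the TATA box TATAAA (12.9%), the cyclic AMP response element TGACGTCA (1.59%) and the EGR site GCGTGGGCG (0.478%) had no match in these windows. None of the motifs overlapped another in these sequences. A match describes letters only.

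In the aged hippocampus the beta subunits Scn2b and Scn3b were lower in AC than in YC, at 0.905-fold and 0.862-fold of the YC level. The differences for the third beta subunit, Scn4b, and for all alpha subunits did not pass the adjusted threshold, and no test compared one subunit with another. Neither call held with array medians made equal (limma adjusted p = 0.060 for Scn2b and 0.089 for Scn3b), with AC and YC fitted alone (0.078 and 0.17) or without the 5 choroid-high arrays (0.15 and 0.11). With AC and YC fitted alone the log2 differences stayed at -0.14 and -0.21. Without the choroid-high arrays that of Scn2b shrank to -0.083, while that of Scn3b grew to -0.25. Calls among all probe sets fell from 1300 to 385 and 386 in these 2 settings. The 2 probe sets called lower among 8 compare with 4.18% called lower and 5.56% called higher among all 13339, by limma with Benjamini-Hochberg adjusted p under 0.05. At an unadjusted p under 0.05, 5 of the 8 were lower (Scn1a, both Scn3a probe sets, Scn2b and Scn3b), against 13.7% of all probe sets. All 8 log2 differences were below 0, with a median of -0.095, beside a median of -0.0062 and 52.5% below 0 among all probe sets tested. As tissue pieces were measured, fewer cells of a type and less RNA per cell cannot be told apart here.

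**Figure D1:**
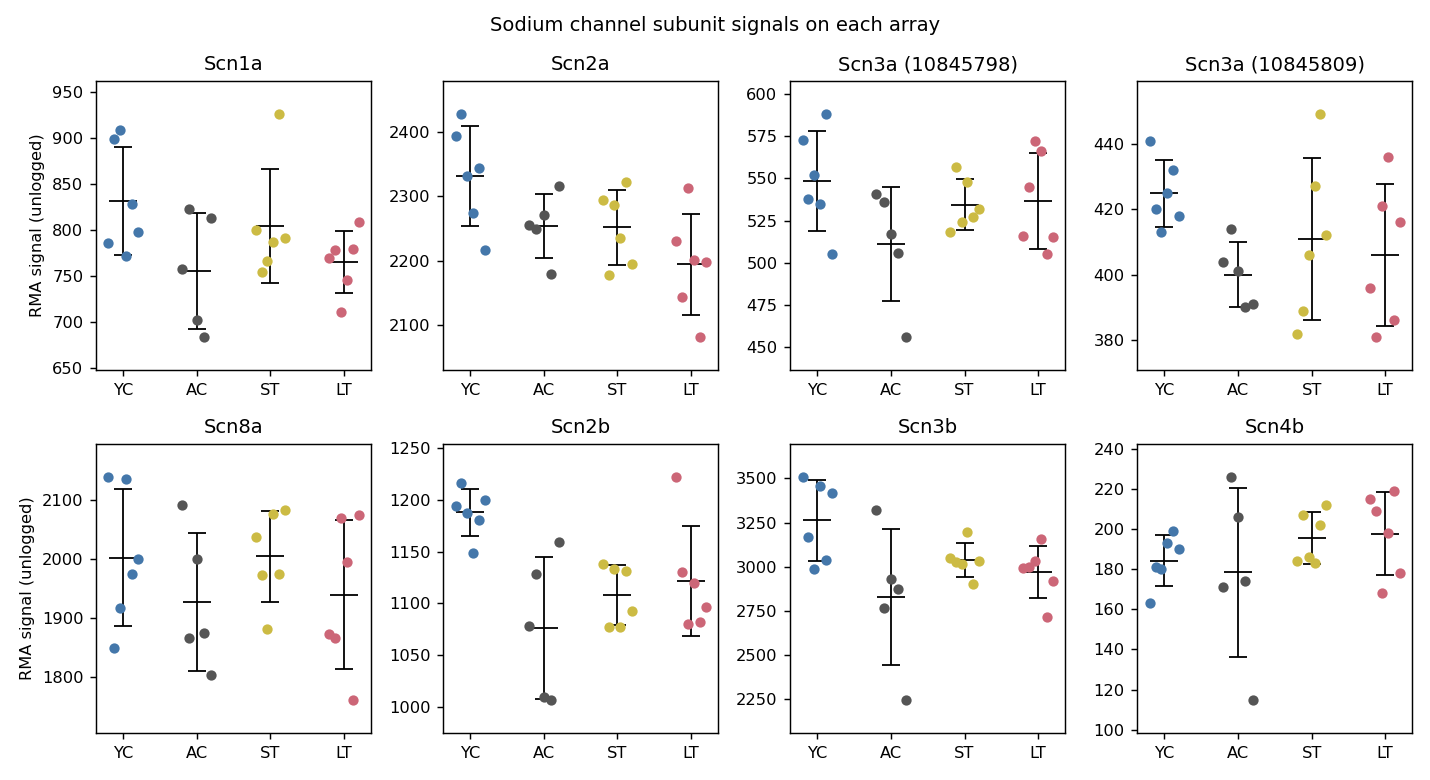
Unlogged RMA signal (y axis, with its own range in each panel that does not start at 0) of each sodium channel probe set in YC, AC, ST and LT (x axis). Points are arrays in replicate order, horizontal bars the group mean and error bars the SD. Scn2b on the 5 AC arrays ranged from 1007 to 1159 and on the YC arrays from 1149 to 1216, and Scn3b and Scn4b were each lowest on an AC array (2248 and 115).

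Scn2b signals were 1149 at the lowest, 1190.5 at the median and 1216 at the highest of the 6 YC arrays. The AC arrays read 1078, 1128, 1009, 1007 and 1159. Thus 4 of 5 AC arrays fell under the lowest YC array, and AC replicate 5 stayed inside the YC range. The mean signal was 1188 ± 22.5 (SD, n = 6) in YC and 1076 ± 68.6 (SD, n = 5) in AC. The log2 difference was -0.14 (SE 0.038, 95% interval -0.22 to -0.066, limma adjusted p = 0.021), and a two-sided exact permutation test of these 11 arrays gave p = 0.00866.

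The lowest Scn2b signals in AC were on replicates 3 and 4, the AC arrays with high choroid plexus transcripts. Without the 5 arrays high in those transcripts the log2 difference in Scn2b shrank to -0.083 (limma adjusted p = 0.15). Leaving out AC replicate 3 or 4 alone gave -0.12 in each case (limma adjusted p = 0.063 in both). The choroid plexus list had 0 of 10 genes called between AC and YC, with a median log2 difference of 1.44. In the endothelium list 4 of 5 genes were called higher, with a median of 0.39, and its score was 0.44 and 0.37 on these same arrays and 0.33 on AC replicate 5, against -0.19 to 0.073 on the other 20 arrays. The part of either list in the Scn2b result was not tested.

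Scn3b had the largest log2 difference of the members and the second largest spread among AC arrays relative to its mean, after Scn4b. YC arrays read 2987 at the lowest, 3291.5 at the median and 3507 at the highest. The AC arrays read 3322, 2764, 2930, 2875 and 2248. Again 4 of 5 AC arrays fell under the lowest YC array, but the exception was now AC replicate 1. Means were 3262 ± 227 (SD, n = 6) in YC and 2828 ± 386 (SD, n = 5) in AC. The log2 difference was -0.21 (SE 0.068, 95% interval -0.35 to -0.074, limma adjusted p = 0.048, two-sided exact permutation p = 0.0433).

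This call lay at the threshold and was lost in 19 of the 23 fits that each left out 1 array, with adjusted p between 0.0071 and 0.10. The value itself rested most on AC replicate 5, which had the lowest Scn3b signal. Without that array the log2 difference was -0.13 (limma adjusted p = 0.10). The same array had the lowest hippocampal neuron score but the highest score of the neuron list (0.11). Among the 6 hippocampal markers it was far below the other arrays for Wfs1 (580, against 2444 to 2996) and Prox1 (333, against 632 to 950), just below them for Zbtb20 (2404, against 2668 to 3651) and Neurod2 (683, against 721 to 1024), inside their range for Neurod6, and above all others for Fibcd1 (905, against 550 to 693). Its RNA integrity number was 8.9, against 9.3 to 9.8 in the other AC rats, and with that number as a covariate the Scn3b difference was -0.20 (limma adjusted p = 0.055). In the hippocampal neuron list 0 of 6 genes were called between AC and YC, with a median log2 difference of -0.056, and in the microglia list 6 of 8 were called higher, with a median of 0.49. The part of tissue composition in the Scn3b value was not tested.

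Scn2b and Scn3b were thus lowest on different AC arrays. AC replicate 5, lowest of all 23 arrays for Scn3b, had the highest Scn2b signal of its group, and AC replicate 1, highest in its group for Scn3b, was intermediate for Scn2b. The correlation of their log2 deviations from group means over 23 arrays was r = -0.34 (Spearman's rho = -0.26, within-group permutation p = 0.32 and 0.28, adjusted p = 0.53 and 0.52 over the 28 pairs of member probe sets, r = -0.15 without AC replicates 1 and 5).

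**Figure D2:**
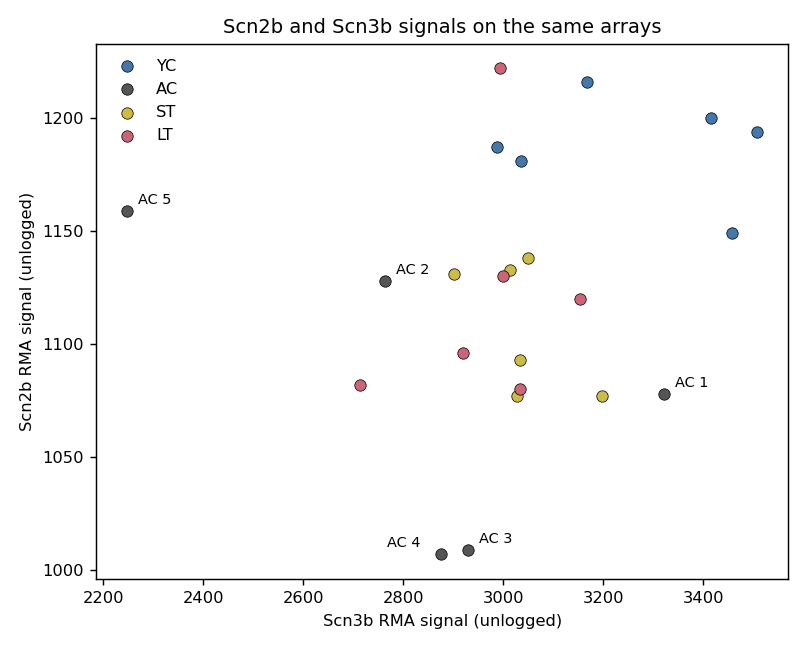
Unlogged RMA signal of Scn3b (x axis) and Scn2b (y axis) on each of the 23 arrays, coloured by group, with the AC replicates numbered. AC replicates 3 and 4 lay lowest for Scn2b (1009 and 1007), while AC replicate 5 lay lowest for Scn3b (2248) with a Scn2b signal of 1159.

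Scn4b showed no shared shift. Its AC arrays read 171, 226, 206, 174 and 115, and its YC arrays read 163, 185.5 and 199 at the lowest, median and highest. The AC arrays thus lay on both sides of the YC range, with 1 below and 2 above. The log2 difference was -0.081 (SE 0.12, limma adjusted p = 0.69), and it turned to 0.069 without AC replicate 5.

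Among the alpha subunits, Scn1a had the largest difference between AC and YC. Its YC arrays read 772, 813.5 and 909 at the lowest, median and highest, and its AC arrays 758, 823, 702, 684 and 813. Of these, 3 of 5 AC arrays lay under the lowest YC array. The log2 difference was -0.14 (SE 0.058, 95% interval -0.26 to -0.018), with an unadjusted p of 0.026 that did not pass after adjustment (limma adjusted p = 0.13, two-sided exact permutation p = 0.0823). In the inhibitory neuron list 0 of 8 genes were called and the median log2 difference was -0.14, and the list's score ran from -0.042 to 0.17 in YC and from -0.21 to 0.17 in AC.

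Both Scn3a probe sets were lower on average in AC without passing the adjusted threshold. For 10845809 the AC arrays read 404, 414, 401, 390 and 391 and the YC arrays 413, 422.5 and 441 at the lowest, median and highest, so that 4 of 5 AC arrays lay under all YC arrays. Its log2 difference was -0.087 (SE 0.040, limma adjusted p = 0.16, two-sided exact permutation p = 0.00866). For 10845798 the AC arrays read 541, 536, 517, 506 and 456 and the YC arrays 505, 545 and 588. Here only AC replicate 5 lay outside the YC range, and the log2 difference was -0.10 (SE 0.046, limma adjusted p = 0.15, two-sided exact permutation p = 0.10).

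Scn2a and Scn8a differed least among the alpha subunits. Scn2a read 2255, 2249, 2271, 2179 and 2316 on the AC arrays and 2216, 2338.5 and 2428 at the lowest, median and highest of YC, a log2 difference of -0.048 (95% interval -0.11 to 0.014, limma adjusted p = 0.31). Scn8a read 2092, 1865, 2000, 1874 and 1803 on the AC arrays and 1848, 1987 and 2139 in YC, a log2 difference of -0.055 (95% interval -0.16 to 0.047, limma adjusted p = 0.49). In each case 1 AC array lay below the YC range. No member had AC arrays that all lay below all YC arrays, a pattern shown by 1.88% of all probe sets.

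**Figure D3:**
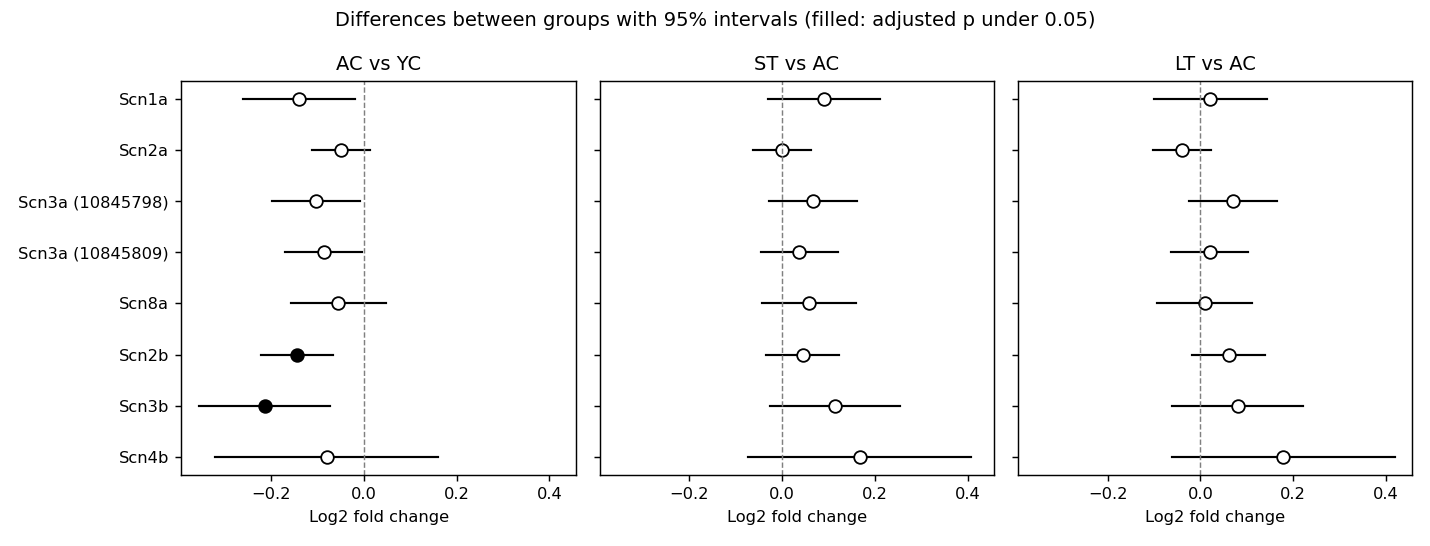
Log2 fold change (x axis) of each sodium channel probe set (y axis) between AC and YC, ST and AC, and LT and AC. Circles are limma estimates, lines 95% intervals, and filled circles mark an adjusted p under 0.05. Scn2b (-0.14) and Scn3b (-0.21) are filled in AC vs YC, and all 16 intervals against AC span 0.

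FKBP1b gene transfer was followed by no member difference from AC that passed a test. In ST vs AC, 0 of 8 probe sets were called by limma, beside 0% of all probe sets, and none had an unadjusted p under 0.05, beside 9.82% of all. In LT vs AC, 0 of 8 were called, beside 0.075% of all, and none had an unadjusted p under 0.05, beside 12.6%. The mean of both treated groups against AC gave 0 of 8, beside 0.03% of all at the adjusted and 10.5% at the unadjusted threshold. In each treated group 7 of 8 log2 differences from AC were above 0 and 1 was below, beside 43.3% of all probe sets below 0 in ST and 51.8% in LT. Their medians were 0.062 in ST and 0.041 in LT beside 0.0100 and -0.0031 among all probe sets. AC enters both of these comparisons and the one with YC, so the signs of the 3 are not independent of each other.

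Scn2b signals ran from 1077 through a median of 1112 to 1138 in ST, and from 1080 through 1108 to 1222 in LT. No ST array and 1 of 6 LT arrays exceeded the highest AC array. The log2 difference from AC was 0.044 in ST (95% interval -0.034 to 0.12, limma adjusted p = 0.74) and 0.061 in LT (95% interval -0.018 to 0.14, limma adjusted p = 0.51). Both turned below 0 without the 5 arrays high in choroid plexus transcripts, at -0.017 in ST and -0.029 in LT. In the fit of all arrays the upper limits, 0.123 in ST and 0.139 in LT, were smaller in size than the AC vs YC difference of -0.145. That difference had its own 95% interval of -0.22 to -0.066.

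Scn3b signals ran from 2901 through a median of 3030 to 3198 in ST, and from 2714 through 2996 to 3154 in LT. All 12 treated arrays lay inside the AC range of 2248 to 3322. The log2 difference from AC was 0.11 in ST (95% interval -0.027 to 0.25, limma adjusted p = 0.60) and 0.080 in LT (95% interval -0.060 to 0.22, limma adjusted p = 0.63). Both intervals thus held 0 as well as 0.21, the size of the AC vs YC difference.

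Scn4b had the widest intervals. Its ST arrays read 183, 194 and 212 and its LT arrays 168, 203.5 and 219 at the lowest, median and highest, all within the AC range of 115 to 226. The log2 difference from AC was 0.17 in ST (95% interval -0.073 to 0.41) and 0.18 in LT (95% interval -0.061 to 0.42). Neither passed (limma adjusted p = 0.66 and 0.53).

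Of the alpha subunits, Scn1a read 755, 789 and 926 at the lowest, median and highest in ST and 711, 774.5 and 809 in LT. Its log2 difference from AC was 0.090 in ST (95% interval -0.031 to 0.21, limma adjusted p = 0.64) and 0.021 in LT (95% interval -0.100 to 0.14, limma adjusted p = 0.91), and the LT value turned to -0.080 with the 5 choroid-high arrays left out. Scn2a stayed closest to AC in ST, at 2177, 2261 and 2323, with a log2 difference of -0.0014 (95% interval -0.064 to 0.061). In LT, Scn2a read 2081, 2199 and 2313, a log2 difference from AC of -0.039 (95% interval -0.10 to 0.023). It was the only member with an estimate below 0 in both treated groups.

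Scn8a read 1881, 2006 and 2083 in ST and 1761, 1934 and 2074 in LT. Its log2 difference from AC was 0.058 in ST (95% interval -0.044 to 0.16) and 0.0090 in LT (95% interval -0.093 to 0.11). For Scn3a, 10845798 read 518, 529.5 and 557 in ST and 505, 530.5 and 572 in LT, with log2 differences from AC of 0.066 and 0.071. Probe set 10845809 read 382, 409 and 449 in ST and 381, 406 and 436 in LT, with log2 differences of 0.037 and 0.020. All of these intervals included 0.

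Length of FKBP1b exposure and age at injection both differ between LT and ST and cannot be told apart. On the array, the log2 difference between them in the probe set annotated as Fkbp1b was 0.55 (SE 0.12), which did not pass (limma adjusted p = 0.12). The paper, however, states that this array lacks a probe set for FKBP1b. It measured FKBP1b by qRT-PCR instead and reported significantly higher expression in LT than in ST. In this comparison 0 of 8 members were called by limma, beside 0.0075% of all probe sets. Log2 differences ran from -0.069 for Scn1a (95% interval -0.18 to 0.047) to 0.017 for Scn2b (95% interval -0.058 to 0.091). On this contrast 5 of 8 were below 0, beside 57.5% of all probe sets, with a median of -0.025 beside -0.013 among all. All 15 neuron markers were also below 0 between LT and ST, and the choroid plexus score was higher in LT (0.95 ± 1.54, SD, n = 6) than in ST (-1.02 ± 0.19, SD, n = 6). Their part in the sodium channel values was not tested.

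The treated groups were also set against YC, a contrast added after the data were seen. In ST vs YC, 0 of 8 members passed, beside 1.44% of all probe sets called lower, and in LT vs YC, 0 of 8 passed, beside 0.225%. Scn2b was the exception to overlap, as all 6 ST arrays (1077 to 1138) lay under all 6 YC arrays (1149 to 1216), which held for 1.24% of all probe sets, with a log2 difference of -0.10 (SE 0.036, limma adjusted p = 0.11). That p was 0.030 when YC and ST were fitted alone, where 3.34% of all probe sets were called lower. It was 0.040 (1.39% of all) with the 5 arrays rich in choroid plexus transcripts left out, none of which is in YC or ST. The Scn2b estimate stayed at -0.10 in both settings. In the 23 fits that each left out 1 array it did not pass, with limma adjusted p between 0.065 and 0.21. In LT, 5 of 6 Scn2b arrays lay under the lowest YC array while LT replicate 1 (1222) lay above the highest, with a log2 difference of -0.084 (limma adjusted p = 0.30). The lowest unadjusted p in LT vs YC was that of Scn2a, at 0.0059 (log2 difference -0.088, limma adjusted p = 0.15), where 4 of 6 LT arrays lay under the lowest YC array.

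An F test over the 4 groups called 0 of 8 members at an adjusted p under 0.05, beside 5.46% of all probe sets. The lowest values were those of Scn2b (limma adjusted p = 0.077), Scn3b (0.17) and Scn2a (0.20). At an unadjusted p under 0.05 these same 3 members passed, beside 24.2% of all probe sets.

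Within groups the subunits did not vary as a block. Over 28 pairs of member probe sets, the correlation of log2 deviations from group means across the 23 arrays ran from -0.53 to 0.68 with a median of 0.14, and 15 pairs were above 0. The highest was Scn8a with Scn3b (r = 0.68, rho = 0.67, within-group permutation p = 5.4e-04 and 0.0028, adjusted p = 0.015 and 0.048 over the 28 pairs, r = 0.59 without AC replicate 1 and LT replicate 5). This was the single pair whose Pearson correlation passed after adjustment. The arrays left out were those farthest from the median Scn8a deviation. AC replicate 5, lowest of all for Scn3b (2248), therefore stayed in, and the correlation without it was not computed.

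The correlation of Scn1a with Scn2b was positive but did not pass after adjustment (r = 0.56, rho = 0.59, within-group permutation p = 0.011 and 0.0093, adjusted p = 0.14 and 0.071, r = 0.52 without ST replicate 5 and AC replicate 4). With Scn3b the correlation of Scn1a was negative and passed after adjustment for rho but not for r (r = -0.53, rho = -0.66, within-group permutation p = 0.020 and 0.0034, adjusted p = 0.14 and 0.048, r = -0.55 without the same arrays). These arrays were farthest from the median Scn1a deviation, so AC replicate 5 again stayed in. The 2 Scn3a probe sets had r = 0.40 (rho = 0.46, within-group permutation p = 0.041 and 0.032, adjusted p = 0.19 and 0.18, r = 0.40 without AC replicate 5 and YC replicate 6). Probe sets on the same array share its dissection and tissue makeup, which differed between arrays. The part of tissue makeup in these correlations was not tested. The hippocampal neuron score ranged from -0.59 on AC replicate 5 to 0.22 on AC replicate 1, which were also the arrays with the lowest Scn3b signal and the highest Scn3b signal in AC. The neuron list, in contrast, had its highest score (0.11) on AC replicate 5.

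**Figure D4:**
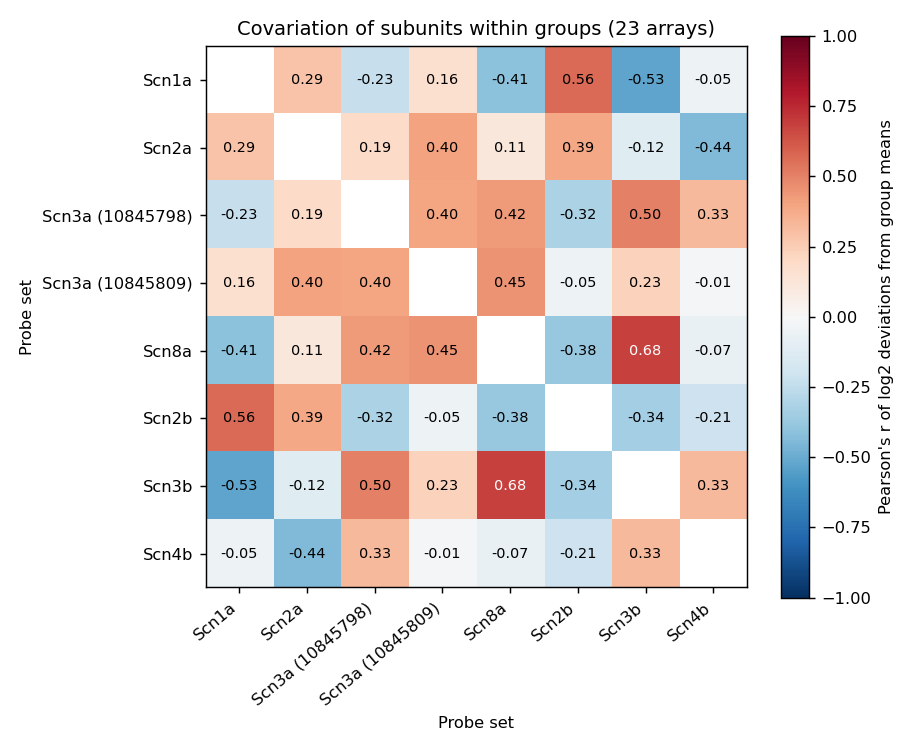
Pearson's r between log2 deviations from group means for each pair of sodium channel probe sets (both axes) over 23 arrays, with colour and printed value giving r. Scn8a and Scn3b had the highest value (0.68) and Scn1a and Scn3b the lowest (-0.53).

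Each member had other genes with a closely similar profile over the 23 arrays, chosen as the highest Pearson r among 12420 genes and given as a description. Scn3b had the closest matches, namely Gpr155 (r = 0.95, and 0.94 for deviations from group means), Chn1 (0.93 and 0.90) and Camk1d (0.92 and 0.89). Scn8a was most like Slc24a2 (0.92 and 0.93), Chrm1 (0.89 and 0.88) and Rasgrf2 (0.89 and 0.92), and Scn1a most like Cntn4 (0.88 and 0.83), Ina (0.87 and 0.86) and Rusc1 (0.87 and 0.88). Scn4b followed Reep5 (0.89 and 0.89), Wscd1 (0.88 and 0.88) and S1pr5 (0.87 and 0.87).

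For Scn2b the closest were Zwint (0.85 and 0.75), Pals2 (0.83 and 0.73) and Dip2c (0.82 and 0.67). For Scn2a they were Dlg2 (0.85 and 0.74), Phlpp2 (0.78 and 0.71) and Klhl5 (0.77 and 0.70). The 2 Scn3a probe sets had different neighbours, with Jagn1, Slc2a13 and Cyb5b (r = 0.82, 0.82 and 0.80) for 10845798 and Sf3a3, Tnik and Elp5 (r = 0.82, 0.80 and 0.75) for 10845809.

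Of 50 genes tested in 4 lists of sodium channel machinery, 3 (6%) were called between AC and YC, beside 9.75% of all probe sets. The limma adjusted p applies to each value that follows. Of 11 other sodium channel genes listed, 5 had a probe set of their own, 1 was called lower and none higher, with a median log2 difference of -0.11. The gene called was Scn10a, an alpha subunit known from sensory neurons, with signals of 96 to 117 in YC and 88 to 104 in AC and a log2 difference of -0.21 (SE 0.050, adjusted p = 0.013). The leak channel Nalcn differed by -0.050 (adjusted p = 0.34).

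Partners of the channel at the axon initial segment and node of Ranvier numbered 15 tested of 18 listed, and 0 were called, with a median of -0.0023. The smallest p values among them were those of Tnr, an extracellular matrix glycoprotein that binds beta subunits, at -0.074 (adjusted p = 0.16), and the adhesion molecule Cntn1 at 0.10 (adjusted p = 0.17). Of 21 regulators tested of 25 listed, 1 was higher and none lower, with a median of -0.033 and 18 of 21 below 0. The regulator called was Rest, the repressor of neuronal genes that acts through RE1 elements, with signals of 114 to 121 in YC and 120 to 156 in AC and a log2 difference of 0.27 (SE 0.072, adjusted p = 0.022). The SD of the Rest signal was 14.9 in AC and 16.7 in LT, the groups with choroid-high arrays, against 2.48 in YC and 6.38 in ST. The part of tissue makeup in the Rest value, and any link of Rest to the members, was not tested.

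Of 9 sodium pump and sodium-calcium exchanger genes tested of 12 listed, 1 was higher and none lower, with a median of -0.064. This was Fxyd1, the pump regulator phospholemman, with signals of 1788 to 1961 in YC and 2220 to 3517 in AC. Its log2 difference was 0.52 (SE 0.099, adjusted p = 0.0033). The SD of its signal was 605 in AC and 305 in LT, the groups with choroid-high arrays, against 71.0 in YC and 89.9 in ST. The part of tissue makeup in the Fxyd1 value was not tested. No gene of these 4 lists was called in ST vs AC or LT vs AC.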

How the data were processed

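Transcripts of each rat were hybridised to 1 Affymetrix Rat Gene 1.0 ST array. The authors deposited RMA values as unlogged, rounded intensity, which RMA background-corrects, quantile-normalizes and summarizes per probe set. The processing notes name Partek and RMA without versions. RMA and rounding leave no probe-level error, and the number of arrays limits precision. Genes were named through the platform annotation (15307 of 29211 probe sets with 1 symbol, 323 with several, 13581 with none listed).

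Log2 signals of 13339 probe sets that carried 1 symbol and reached 40 on 4 or more arrays were fitted with limma 3.58.1 (R 4.3.3) as 4 group means over all 23 arrays, with empirical Bayes variances and Benjamini-Hochberg adjustment over all 13339. Blank signals (238 in YC, 265 in ST, 255 in LT, 0 in members) were left out. The fit was tested on simulated data. Single values were also tested by exact permutation (SciPy 1.17.1), for which the smallest p of 5 against 6 arrays is 0.00433, and pairs by 100000 permutations within groups. Levels were compared only within a probe set.

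Members and lists were chosen with earlier results of these data known. Genes named were every member; of each pathway list, up to 5 called in AC vs YC with the smallest p, or the 2 with the smallest p where none was called; and the 3 genes most like each member. Nalcn, Fkbp1b and the hippocampal neuron markers were named outside this rule. Alternatives were the methods' ANOVA with least significant difference tests, other filters, scalings, a replicate block, RNA integrity, fewer groups and leaving out arrays. ST and LT against YC were added after the data were seen.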

Additional observations from a re-analysis of the deposited data

Results flagged for a closer look

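In 32 groups of array values (8 probe sets in 4 groups), 2 had an array far from the rest by Dixon's ratio, the gap to the nearest array divided by the group's range. For Scn1a in ST the highest array, replicate 5 with a signal of 926, had a ratio of 0.737. For Scn2b in LT the highest array, replicate 1 with a signal of 1222, had a ratio of 0.648. At the 95% critical value chance marks about 5% of groups.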

How the results depend on the processing

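The 56 member differences were recomputed under 36 alternatives, of which the exact permutation test with unadjusted p covered 40. Of 2000 values, 1905 kept their direction and side of the threshold, 30 were no longer past it, 7 newly passed it (1 of them by the permutation test) and 58 changed sign. Only differences that did not pass in the original fit changed sign.

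Between AC and YC, 2 members were called. This became 1 with the methods' ANOVA after Benjamini-Hochberg adjustment, without the signal filter and with RNA integrity number as a covariate. It became 0 with array medians made equal, without the 5 choroid-high arrays and with the compared groups alone. Leaving out 1 array gave 0 to 2. Scn2b had an adjusted p of 0.060 with equal medians, 0.15 without the choroid-high arrays and 0.078 with 2 groups alone. Scn3b had 0.089, 0.11 and 0.17 in the same order, although its log2 difference grew to -0.25 without the choroid-high arrays. The causes of these losses were not tested.

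In ST vs YC, where no member was called, 1 was called lower with the methods' unadjusted ANOVA, without the choroid-high arrays and with the compared groups alone, beside 6.24%, 1.39% and 3.34% of all probe sets. The methods' unadjusted ANOVA called 3 members lower in LT vs YC (4.42% of all probe sets) and 3 in the F test (24.2%), for which leaving out 1 array gave 0 to 1. Member counts in ST vs AC, LT vs AC, their mean vs AC and LT vs ST were 0 under every alternative tried.

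Over all probe sets the calls were 1300 in AC vs YC, 0 in ST vs AC, 10 in LT vs AC, 4 for the mean of both vs AC, 1 in LT vs ST and 728 in the F test. Leaving out 1 array gave 796 to 1868, 0 to 65, 2 to 104, 1 to 120, 1 to 7 and 383 to 1259. The methods' unadjusted ANOVA gave 2441, 813, 1215, 931, 1092 and 3223. In AC vs YC the other moves were 2355 over all probe sets past the signal filter, 386 without the choroid-high arrays and 385 with the compared groups alone. In LT vs AC they were 4 with the adjusted ANOVA, 5 without a signal filter, 23 at a signal minimum of 100, 118 over all probe sets past the filter, 28 with equal medians, 6 after quantile normalization, 3 with the replicate block, 5 without the choroid-high arrays and 3 with the compared groups alone. For the mean vs AC they were 7 over all probe sets past the filter, 0 without the choroid-high arrays and 1 with the compared groups alone. In LT vs ST they were 113 over all probe sets past the filter, 5 without the choroid-high arrays, and 2 with the adjusted ANOVA, a signal minimum of 100, equal medians, RNA integrity number or the compared groups alone. In the F test they were 1457 over all probe sets past the filter, 1098 with equal medians and 316 without the choroid-high arrays.

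Without the choroid-high arrays the log2 difference became -0.017 for Scn2b in ST vs AC, -0.080 for Scn1a and -0.029 for Scn2b in LT vs AC, -0.036 for Scn1a and -0.023 for Scn2b in the mean vs AC, 0.049 for Scn3a 10845809, 0.030 for Scn8a, -0.012 for Scn2b and -0.11 for Scn4b in LT vs ST, and 0.0067 for Scn3a 10845798, 0.033 for Scn8a and -0.024 for Scn4b in LT vs YC. With equal medians it became 0.016 for Scn2a in ST vs AC, -0.0071 for Scn8a in LT vs AC, -0.029 for Scn3a 10845798, -0.017 for Scn2b and -0.022 for Scn4b in LT vs ST, and 0.0019 for Scn3a 10845798 in ST vs YC. With RNA integrity number it became 0.0016 for Scn2a in ST vs AC and 0.022 for Scn3b in LT vs ST. Quantile normalization gave -0.0035 for Scn4b in LT vs ST and -0.0077 for Scn8a in ST vs YC.

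Leaving out 1 array turned the sign of Scn4b in AC vs YC (-0.18 to 0.069), of Scn2a in ST vs AC (-0.014 to 0.0084), of Scn1a (-0.014 to 0.053), Scn3a 10845809 (-7.9e-04 to 0.038) and Scn8a (-0.014 to 0.039) in LT vs AC, of Scn2b (-0.0084 to 0.027), Scn3a 10845798 (-0.014 to 0.022), Scn3a 10845809 (-0.038 to 0.0094) and Scn4b (-0.019 to 0.057) in LT vs ST, and of Scn8a in ST vs YC (-0.020 to 0.022).

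Replicate numbers named arrays and did not pair them. Over 33 same-numbered pairs the correlation of deviations ran from -0.39 to 0.21, 7 exceeded 0.1, and 2 of 23 arrays correlated best with their own number. With the replicate number as a block both members called in AC vs YC passed (Scn2b -0.15, adjusted p = 0.025, and Scn3b -0.21, adjusted p = 0.023), and Scn2a in ST vs AC (0.0057) and Scn8a in LT vs AC (-0.0014) changed sign.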
